A study of Homo sapiens with 12 samples.

Results

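The response of PRMT5-depleted prostate cancer cells to 2 Gy of ionising radiation was read from 6 of the 12 libraries of the series. Members were taken by their labels: 3 libraries of irradiated knockdown cells and 3 of non-irradiated knockdown cells. All came from LNCaP-shPRMT5, a derivative of LNCaP, which is an androgen-responsive line grown from a lymph node metastasis of prostate cancer. The derivative carries a short hairpin RNA against PRMT5 that doxycycline switches on. Both groups received doxycycline at 1 µg/mL every 48 h, so the hairpin, the drug and the loss of PRMT5 are common to both sides of the comparison. The irradiated cells received 2 Gy and were harvested 24 h later, while the others received 0 Gy. The remaining 6 libraries are the same line without doxycycline, 3 at 0 Gy and 3 at 2 Gy, and serve here only as the comparison. No source used here gives the hairpin's sequence, its promoter or whether the line is 1 clone. The 0 Gy and the 2 Gy libraries lie in separate deposited tables, so that irradiation and any other difference between the tables cannot be told apart. Whether the 3 libraries of a group are separate cultures is not stated, so p-values cover only the spread among these libraries, and that spread may be technical.

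Ionising radiation breaks both strands of DNA, and the kinases ATM and ATR relay the damage to the transcription factor p53, which LNCaP cells retain in functional form. p53 induces its inhibitor MDM2, the cyclin-dependent kinase inhibitor CDKN1A (p21) and other arrest and survival genes, after which replication and mitosis genes usually fall. PRMT5 methylates arginines symmetrically in histones and in the Sm proteins of the spliceosome, and its loss is known to sensitise cells to DNA damage. Messenger RNAs of ribosomal proteins and translation factors begin with a run of pyrimidines, the 5′ terminal oligopyrimidine (TOP) motif, through which mTOR signalling controls their translation and stability. ATF4 drives amino acid synthesis and uptake genes in the integrated stress response.

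Total counts ran from 17290307 to 29628545 in the knockdown libraries. CPM stands for counts in 1e6 counts of a library. A gene without a count could have a level of up to 3 counts, or 0.101 to 0.174 CPM, by counting error alone. PRMT5 itself (ENSG00000100462.15) lay at 26.6, 30.8 and 32.8 CPM after TMM scaling in the non-irradiated and at 31.3, 26.9 and 24.9 CPM in the irradiated knockdown libraries. These are 15.7% and 13.8% of the mean of the controls of the same dose, and the knockdown groups overlapped (log2 fold change -0.12, edgeR adjusted p = 0.626; 2-sided exact permutation p = 0.5). All 11 luminal markers were measured, at a sum of 7807 to 8535 CPM without and 7846 to 8231 CPM with irradiation. Leukocyte markers summed to 73.7 to 129 and 95.0 to 222 CPM, LCP1 being the main one, with PTPRC and 4 others at 0 in every knockdown library. Basal markers summed to at most 12.3 CPM. Fibroblast markers summed to 172 to 202 and 157 to 216 CPM, FN1 being the main one, with COL1A2 and PDGFRA at 0 in every knockdown library. The irradiated libraries numbered 1 stood apart. The chi-square per gene between irradiated knockdown libraries was 74.5 for numbers 1 and 2, 56.2 for 1 and 3, and 8.96 for 2 and 3. The non-irradiated knockdown library 1 also differed from the other 2 (23.9 and 29.6, against 13.6 between 2 and 3). The main counts are given with and without these libraries.

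Among 17191 tested genes, 38 cytosolic ribosomal protein genes and 6 p53 targets were higher after irradiation and 7 ATF4 targets were lower. At an adjusted p under 0.05, 374 genes were higher and 241 lower, which is 3.58% of the tested genes, 2.18% higher and 1.4% lower. In all 615 the 3 libraries of one group lay above the 3 of the other, a separation seen in 29.8% of the tested genes. Scaled by library size only, which shifts the median of all genes to -0.15 on the log2 scale, the split turned to 224 higher and 621 lower, so every direction here is relative to the average gene. The calls depended on which libraries entered. Without non-irradiated libraries 1, 2 and 3 they numbered 217, 76 and 139, and without irradiated libraries 1, 2 and 3 they numbered 280, 93 and 220. Control libraries also bear on the calls through the shared spread: without non-irradiated control 2 or 3 there were 284 and 264, without irradiated control 2 there were 406, and without irradiated control 1 there were 1489. Without both knockdown libraries numbered 1 there were 80 higher (0.457%) and 111 lower (0.634%). Without all 4 libraries numbered 1, there were 1815 higher (10.6%) and 1813 lower (10.5%), and 602 of the 615 were called the same way. Base composition moved with the calls: the fifth of genes with the lowest GC content held 108 higher and 12 lower calls and the fifth with the highest held 44 and 86. The part of GC content in the fold changes was not tested.

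**Figure D1:**
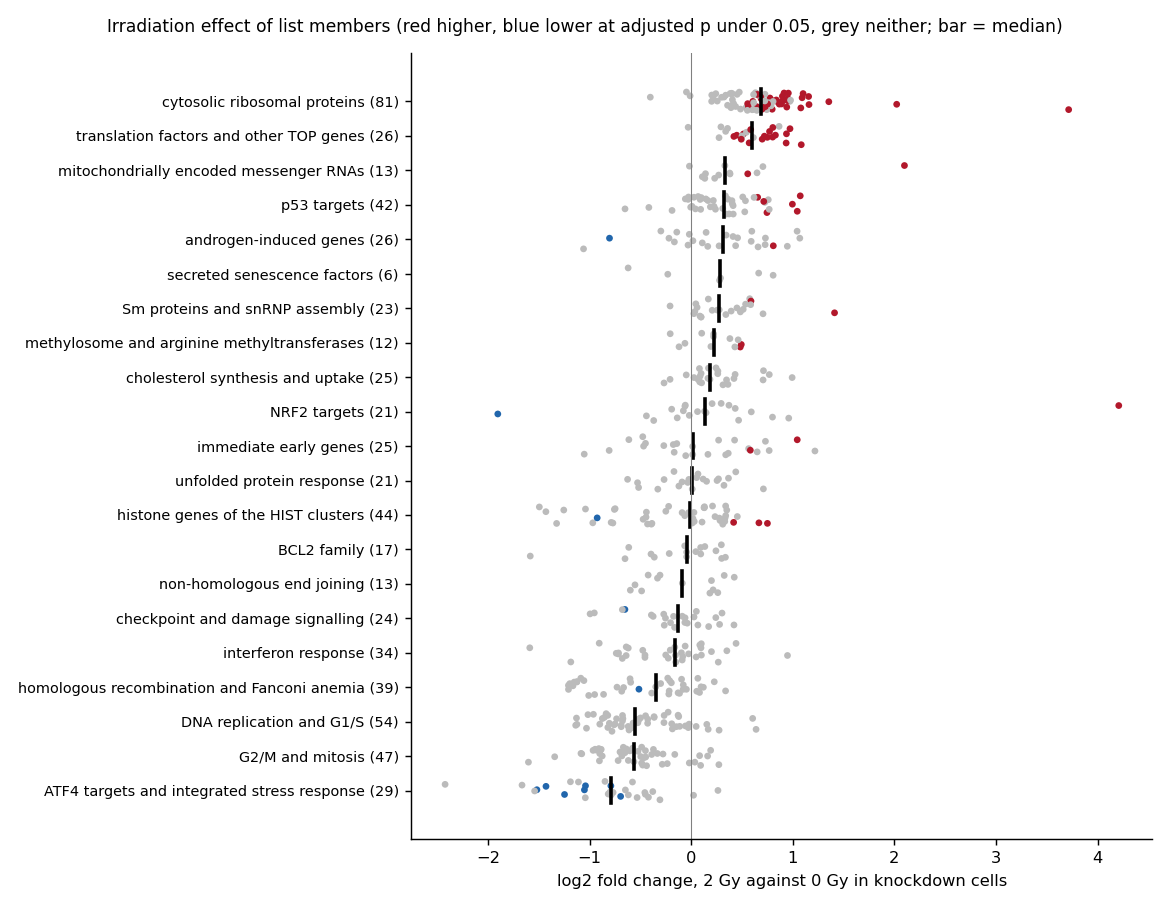
Log2 fold change of 2 Gy against 0 Gy in knockdown cells (x axis) for each tested member of the gene lists other than cell type markers (rows, with the number of members); red and blue points passed an adjusted p of 0.05, grey points did not, and black bars are medians. Ribosomal protein genes lie furthest to the right (median 0.68) and ATF4 targets furthest to the left (median -0.79).

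Of all the lists, cytosolic ribosomal protein genes had the most calls. Of 83 genes 81 could be tested, 78 had a positive fold change and 38 passed the test, all higher (46.9%, against 2.18% of all genes). The median log2 fold change was 0.68, against -0.00 over all tested genes. Their share of all counts was 5.72%, 5.82% and 6.46% in the 3 non-irradiated libraries and 9.23%, 7.68% and 8.19% in the 3 irradiated ones. Every irradiated library lay above every non-irradiated one, and the 2-sided exact permutation p of 0.1 is the smallest that 3 against 3 libraries can give (adjusted p = 0.15 over the 3 shares compared, those of mitochondrial and histone genes being the others). The start regions of 2 genes of this group and of 4 other known TOP genes that rose with it are shown. These are examples that carry a TOP-like run. That of RPS27L, a ribosomal protein paralogue that also rose, is shown as one without it. All start regions are read from RefSeq (GRCh38.p14), 15 bases before and 15 from the annotated start, on the gene's strand. The pyrimidine run that covers the start is in capitals.
RPS24, chr10:78033848-78033877, plus strand: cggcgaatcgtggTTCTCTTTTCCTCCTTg
RPL11, chr1:23691791-23691820, plus strand: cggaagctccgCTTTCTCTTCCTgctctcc
EEF2, chr19:3985449-3985478, minus strand: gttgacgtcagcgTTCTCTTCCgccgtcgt
BTF3, chr5:73498427-73498456, plus strand: tgtcacttccggCCTCCCTTTagctgccat
NAP1L1, chr12:76084671-76084700, minus strand: ggcgggctcttgggTCTTTTTTagcgccat
TPT1, chr13:45341169-45341198, minus strand: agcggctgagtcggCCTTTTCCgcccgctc
RPS27L, chr15:63157463-63157492, minus strand: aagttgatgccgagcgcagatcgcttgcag
A run of at least 6 consecutive C or T that covers the start or a base beside it, on the gene's strand only, was found at 1 or more listed starts of 51 of the 65 tested ribosomal protein genes with an entry (78.5%). Among the 30 of these called higher it was found in 21 (70%). The same search found it in 18.2% of all 27305 genes with an entry and in 21.1% of the 10341 tested ones. Of the other genes called higher it was present in 68 of 207 (32.9%), or 56 of 194 (28.9%) without the known TOP genes listed further on, and of those called lower in 26 of 117 (22.2%). A match describes letters at an annotated start, not use of the motif.

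Single ribosomal protein genes show the size of the change. RPS24, a protein of the small subunit (chromosome 10, 78033760 to 78056812, GRCh38), was read at 905, 985 and 1045 CPM without irradiation and at 2314, 2202 and 1682 CPM with it. Its lowest irradiated library was above its highest non-irradiated one (log2 fold change 1.08, SE 0.16, adjusted p = 0.00743). RPS15A rose from 275 ± 11.7 to 585 ± 42.2 CPM (SD, n = 3; 1.09, SE 0.11, adjusted p = 0.000772). RPL11 and RPL5, the large-subunit proteins that can bind and restrain MDM2, rose by 0.84 and 0.89 on the log2 scale (adjusted p = 0.0168 and 0.00205). RPL11 stood at 439, 424 and 513 CPM and after irradiation at 951, 761 and 747 CPM, with library 1 the highest of the 3. The irradiated library 1 was the highest of the 3 in 71 of the 81 tested members, for example RPL38, with 608, 334 and 391 CPM against 173, 160.0 and 189 CPM without irradiation. Members that did not pass the test include RPLP0 at 0.20, RPS19 at 0.44 and RPL39 at -0.01.

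Ribosomal protein genes have many processed pseudogenes, and reads of near-identical copies can be split between them. The authors' handling of such reads is not given in the sources used here. Of the 50-base words of the tested members, a median of 10.6% also occur in another gene. Among the 21 members with under 5% of such words and of exon positions shared, 8 were higher and the median was 0.66. Of all 10063 tested genes under the same limit, 183 were higher and the median was 0.01. RPL26 had the largest change of the group, with 11.6% of its words shared. It went from 37.5, 37.6 and 34.4 to 543, 435 and 460.4 CPM (3.72 on the log2 scale). In the control cells it changed by 3.68. Processed pseudogenes as a class held 68 calls among 646 tested (10.5%), 36 higher and 32 lower, against 3.58% of all genes. Among called genes with a symbol and at least 5 CPM on average, RPS2P5, RPL3P4 and RPL14P1 were in the 12 largest increases. They had 80.2%, 92.2% and 60.7% of their words shared. RPL13AP25 and EEF1A1P6 were in the 12 largest decreases by the same rule. With both knockdown libraries numbered 1 left out, the ribosomal protein list had 7 higher (median 0.50), against 0.457% of all genes. Without all 4 libraries numbered 1 it had 56 higher and 1 lower (median 0.50), against 10.6% and 10.5% of all genes. Leaving out 1 knockdown library in turn gave 8 to 20 higher and a median of 0.55 to 0.76. Those fits called 50 to 170 genes higher of 17598 to 17732 tested.

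Of the other known TOP genes, 17 rose with the ribosomal proteins. The list of 27 translation factors, snoRNA host genes and other known TOP genes was drawn up after values were seen, and it is described only. Of 26 tested members 25 were positive and 17 were higher (65.4%), with a median of 0.60, against 2.18% higher among all genes. Among initiation and elongation factors 8 of 11 were higher. PABPC1, the poly(A)-binding protein, was at 1297, 1342 and 1620.2 CPM and after irradiation at 2766, 2804 and 2571 CPM (0.93, SE 0.12, adjusted p = 0.00279). Every irradiated library lay above every other, and PABPC1 passed in all 12 fits that each left out 1 library. EEF2, the translocation factor of elongation, was at 2884, 3074 and 3896 and then at 4956, 5308 and 5969 CPM (0.72, adjusted p = 0.0325). EIF3E and EIF3H, subunits of initiation factor 3, rose by 0.97 and 0.75, and EIF4B by 0.80. The chaperones NAP1L1, NACA and BTF3 rose by 0.94, 0.70 and 0.83, the nucleolar protein NPM1 by 0.77 and TPT1 by 0.59. The snoRNA hosts SNHG8, ZFAS1 and GAS5 rose by 1.08, 0.80 and 0.51, whereas SNHG1 stood at -0.03. EEF1A1, the most abundant of the list at 6352, 6234 and 6958 CPM and then 7408, 9021 and 8612 CPM, did not pass (0.36, adjusted p = 0.134). With both knockdown libraries numbered 1 left out, the list had 5 higher, and without all 4 so numbered 23 (against 0.457% and 10.6% of all genes).

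**Figure D2:**
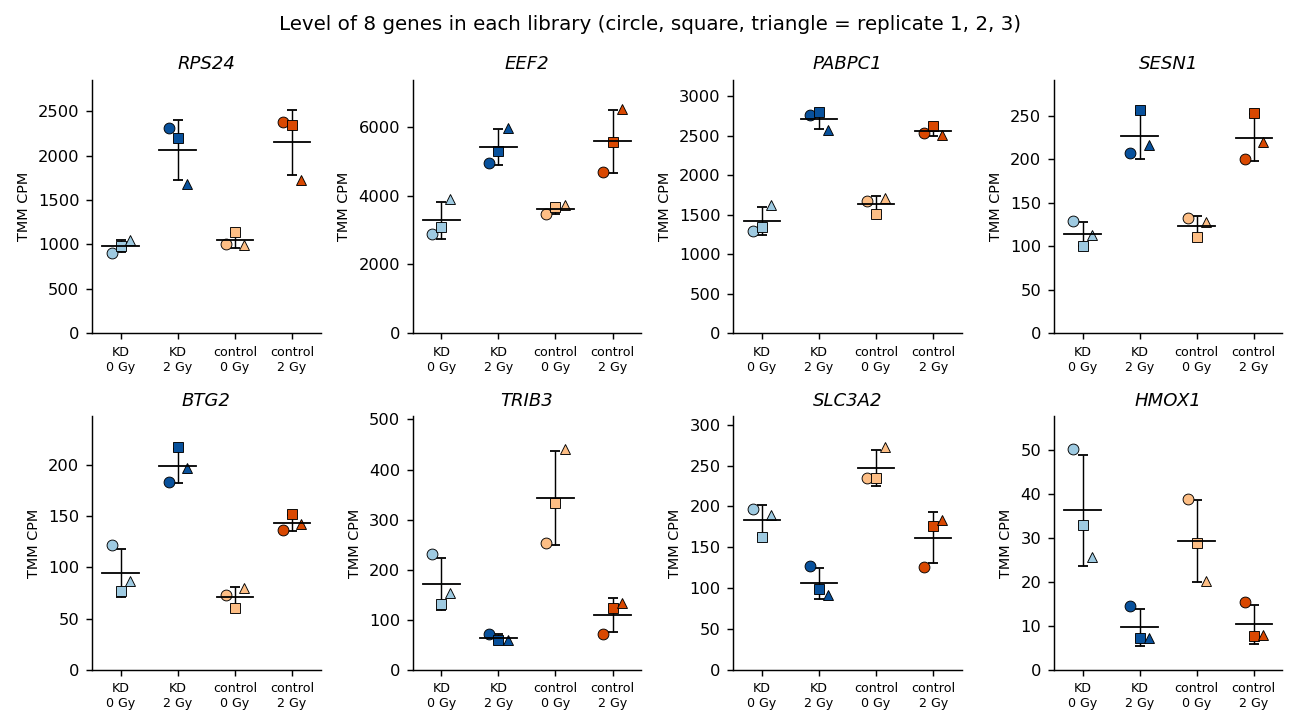
TMM-scaled CPM (y axis, from 0) of 8 genes in the 12 libraries, by group (KD, knockdown); each point is a library, the shape gives its number, and bars are the mean and SD of 3. The irradiated and non-irradiated knockdown libraries do not overlap for any of the 8: RPS24, EEF2, PABPC1, SESN1 and BTG2 are higher and TRIB3, SLC3A2 and HMOX1 lower at 2 Gy.

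Of the p53 targets, 6 rose. Of 42 tested members of 43, 35 were positive (median 0.32), 6 were higher (14.3%, against 2.18% of all genes) and none lower. SESN1, a stress-induced inhibitor of mTORC1 (chromosome 6, 108986437 to 109094819), was at 128, 100.1 and 113 CPM without and 207, 257 and 217 CPM with irradiation. All 3 irradiated libraries exceeded all 3 others (log2 fold change 1.00, SE 0.14, adjusted p = 0.00499), and the call was kept whichever 1 library was left out. BTG2, an antiproliferative factor (chromosome 1, 203305491 to 203309602), was at 121, 76.6 and 86.3 CPM and then at 184, 217 and 197 CPM (1.07, SE 0.17, adjusted p = 0.00892; called in 11 of 12 such fits). RPS27L, a ribosomal protein paralogue induced by p53, was at 189.7, 141 and 139 CPM and then at 365, 313 and 289.7 CPM (1.04, adjusted p = 0.0132). TRIAP1, an inhibitor of apoptosis, and FDXR, the mitochondrial ferredoxin reductase, rose by 0.71 and 0.65 (adjusted p = 0.0333 and 0.0358). RPS27L was called in 9 and TRIAP1 in 4 of the 12 fits without 1 library.

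MDM2, the ubiquitin ligase that degrades p53 (chromosome 12, 68808176 to 68850686), was read at 329.7, 298 and 283 CPM without irradiation. With it the values were 391, 565 and 571 CPM, where library 1 lay closest to the non-irradiated ones and none overlapped (0.75, SE 0.18, adjusted p = 0.0482). The MDM2 call is marginal: it held in 2 of the 12 fits without 1 library, with adjusted p up to 0.181. CDKN1A, the p21 gene (chromosome 6, 36676460 to 36687339), was at 413, 259 and 252 CPM and then at 401, 459 and 477 CPM. Its non-irradiated library 1 lay within the range of the irradiated ones, and CDKN1A did not pass (0.53, SE 0.20, adjusted p = 0.158). No gene of the apoptosis group of the list passed, 13 of 14 tested being positive with a median of 0.14. The death receptor FAS stood at 0.72 (adjusted p = 0.0709), BAX at 0.34, the BH3-only gene BBC3 (PUMA) at 0.09 and PMAIP1 (NOXA) at -0.65. GDF15, a secreted p53 target, varied more than 3-fold between irradiated libraries (181, 666 and 538 CPM). Without all 4 libraries numbered 1 the p53 list had 24 higher (median 0.40, against 10.6% of all genes), CDKN1A (0.87, adjusted p = 4e-05) and MDM2 (0.96) among them. Without both knockdown libraries numbered 1 it had 4, against 0.457% of all genes. Leaving out 1 knockdown library in turn gave 1 to 4, in fits that called 50 to 170 genes higher of 17598 to 17732 tested.

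Of the integrated stress response genes, 7 fell. Of 29 tested members 27 were negative (median -0.79) and 7 were lower (24.1%, against 1.4% of all genes), none higher. DDIT3 (CHOP), a transcription factor of prolonged stress (chromosome 12, 57516588 to 57520517), was at 92.7, 68.1 and 69.5 CPM without irradiation and at 27.3, 26.2 and 26.7 CPM with it. The irradiated libraries were close to each other and all below the others (log2 fold change -1.52, SE 0.27, adjusted p = 0.0165), although 22.5% of its words are shared with another gene. TRIB3, a pseudokinase and feedback inhibitor of ATF4 (chromosome 20, 362835 to 397559), was at 230.3, 131 and 154 CPM and then at 71.9, 59.4 and 59.6 CPM (-1.43, SE 0.28, adjusted p = 0.0219). Non-irradiated library 1 was the highest for both.

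The other 5 genes that fell supply amino acids or are secreted. PHGDH, the first enzyme of serine synthesis, was at 713, 505 and 525 CPM and then at 229, 239 and 267 CPM (-1.25, adjusted p = 0.0332). SHMT2, the mitochondrial serine hydroxymethyltransferase, changed by -0.70 on the log2 scale (adjusted p = 0.0459). GPT2, the mitochondrial alanine aminotransferase, was at 376, 249.9 and 263 CPM and then at 185, 116 and 131 CPM (-1.04, adjusted p = 0.0312). SLC3A2, the heavy chain of the large neutral amino acid transporter and of the cystine transporter, was at 197, 162 and 189.6 CPM and then at 127, 99.1 and 91.5 CPM (-0.79, adjusted p = 0.0316). VEGFA, the angiogenic growth factor, changed by -1.05 (adjusted p = 0.0347). Members with larger differences that missed the threshold were CHAC1, a glutathione-degrading enzyme (-2.42, adjusted p = 0.0783), PCK2 (-1.67, adjusted p = 0.0565) and the cystine transporter SLC7A11 (-1.54, adjusted p = 0.216). ATF4 itself stood at -0.53 (adjusted p = 0.28), and SLC38A2 at 0.02.

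The mean log2 CPM of the list was 7.15, 6.53 and 6.74 in the non-irradiated and 5.95, 6.00 and 5.97 in the irradiated knockdown libraries, so the groups did not overlap. The single-gene calls are less firm than the level of the list. Leaving out 1 knockdown library in turn left no call without non-irradiated library 1, irradiated library 2 or irradiated library 3, 1 call without non-irradiated library 2 or 3, and 4 without irradiated library 1. These fits called 19 to 141 genes lower of 17598 to 17732 tested, and the median of the list stayed between -0.90 and -0.64. Without both knockdown libraries numbered 1 there was 1 lower (median -0.62), and without all 4 so numbered 24 (against 0.634% and 10.5% of all genes). The unfolded protein response, a separate arm of stress signalling in the endoplasmic reticulum, had 11 of 21 tested members positive (median 0.01) and no call. Its sensor gene ERN1 stood at -0.53 and the chaperone HSPA5 at 0.32.

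HMOX1, the heme oxygenase (chromosome 22, 35380361 to 35394214), is a classic NRF2 target. Among called genes with a symbol and at least 5 CPM on average, HMOX1 had 1 of the 12 largest decreases. It was read at 50.2, 33.0 and 25.7 CPM without and 14.6, 7.14 and 7.32 CPM with irradiation, library 1 being the highest in both groups (-1.90, SE 0.38, adjusted p = 0.026; called in 8 of the 12 fits without 1 library). HMOX1 was the only NRF2 target of 21 that fell. Of 21 members 12 were positive (median 0.13), 1 was higher and 1 lower. The one called higher, SRXN1, has 84.8% of its words in another gene and lay at no more than 0.0692 CPM without and at 0.307, 1.27 and 0.854 CPM with irradiation, and no fold is given at such counts. TXN, the thioredoxin gene, stood at 0.96 (adjusted p = 0.0827) and NQO1 at 0.06.

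No replication or mitosis gene passed the test, where 2.18% of all genes were higher and only 1.4% lower. The mean levels of both lists overlapped between the groups. Of 47 G2/M and mitosis genes 41 were negative (median -0.56), and of 54 replication and G1/S genes 48 were (median -0.55). MKI67, the proliferation antigen Ki-67 (chromosome 10, 128096659 to 128126385), was at 26.0, 57.3 and 62.7 CPM without and 35.3, 15.9 and 17.7 CPM with irradiation. Non-irradiated library 1 was the low one and irradiated library 1 the high one, and the groups overlapped (-1.09, SE 0.59, adjusted p = 0.319). TOP2A, the topoisomerase of mitotic chromosomes, was at 61.1 ± 28.5 CPM and then at 32.6 ± 8.37 CPM (SD, n = 3; -0.91, adjusted p = 0.489). MCM2, a subunit of the replicative helicase, was at 52.3, 116 and 98.3 CPM and then at 77.8, 34.7 and 35.1 CPM (-0.86, adjusted p = 0.354). CCNB1, the mitotic cyclin B1, was at 52.5, 68.9 and 67.0 CPM and then at 96.1, 66.3 and 65.2 CPM (0.27, adjusted p = 0.591). CCNE2, the G1/S cyclin E2, stood at -0.84 (adjusted p = 0.521).

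**Figure D3:**
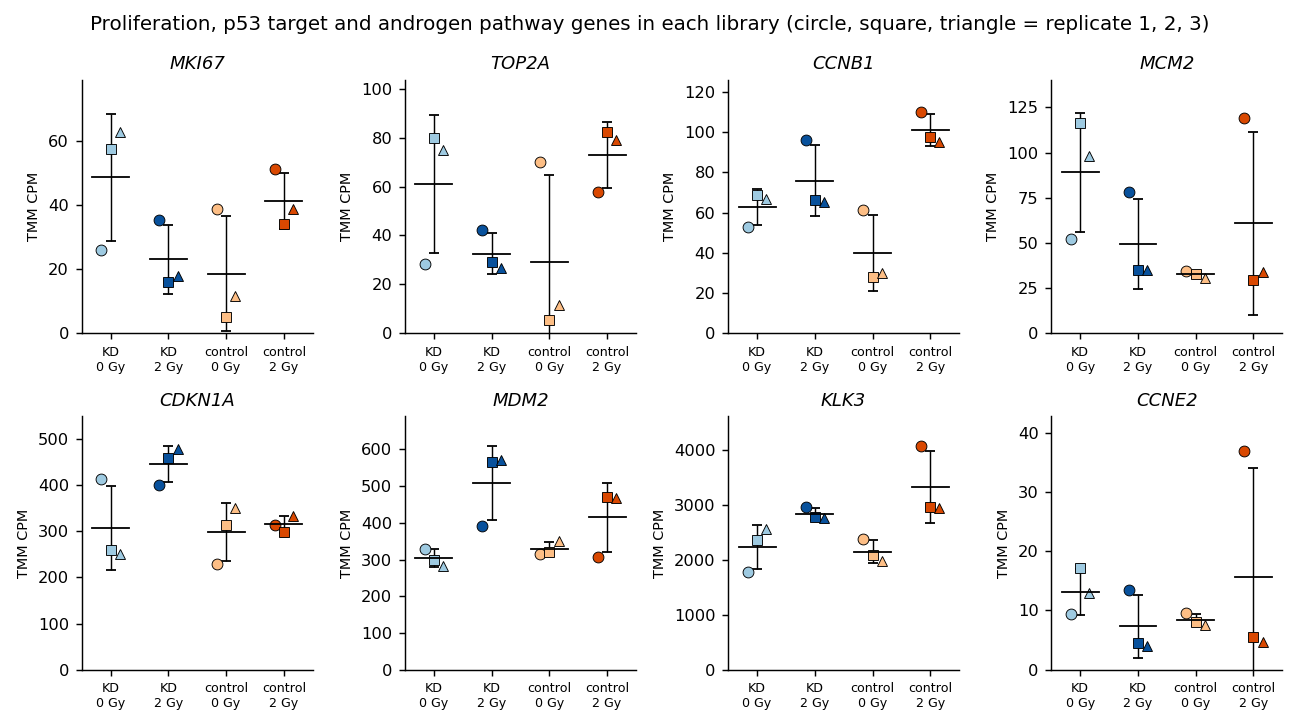
TMM-scaled CPM (y axis, from 0) of 8 genes in the 12 libraries, by group (KD, knockdown); each point is a library, the shape gives its number, and bars are the mean and SD of 3. For MKI67, TOP2A and MCM2 the libraries numbered 1 lie opposite to libraries 2 and 3 in both knockdown groups; MDM2 is separated by dose in knockdown cells.

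The size of this difference depended on the libraries numbered 1. The mean log2 CPM of the G2/M list was 3.30, 4.41 and 4.35 without and 4.05, 3.25 and 3.19 with irradiation. For the replication list it was 4.32, 5.15 and 4.86 and 4.99, 3.74 and 3.80. Between libraries 2 and 3 alone the irradiated values lay more than 1 log2 unit below the others in both lists. Without both knockdown libraries numbered 1 the medians were -1.20 and -1.06, with no G2/M call and 1 replication call. Without all 4 libraries numbered 1, 39 of 47 G2/M genes and 44 of 54 replication genes were lower (against 10.5% of all genes), with MKI67 at -1.84 (adjusted p = 0.00321), MCM2 at -1.62 (adjusted p = 2.5e-07) and CCNB1 at -0.05 (adjusted p = 0.757). That subset of libraries was chosen after their values were seen. In bulk RNA, fewer cells of a kind and less RNA per cell cannot be told apart.

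**Figure D4:**
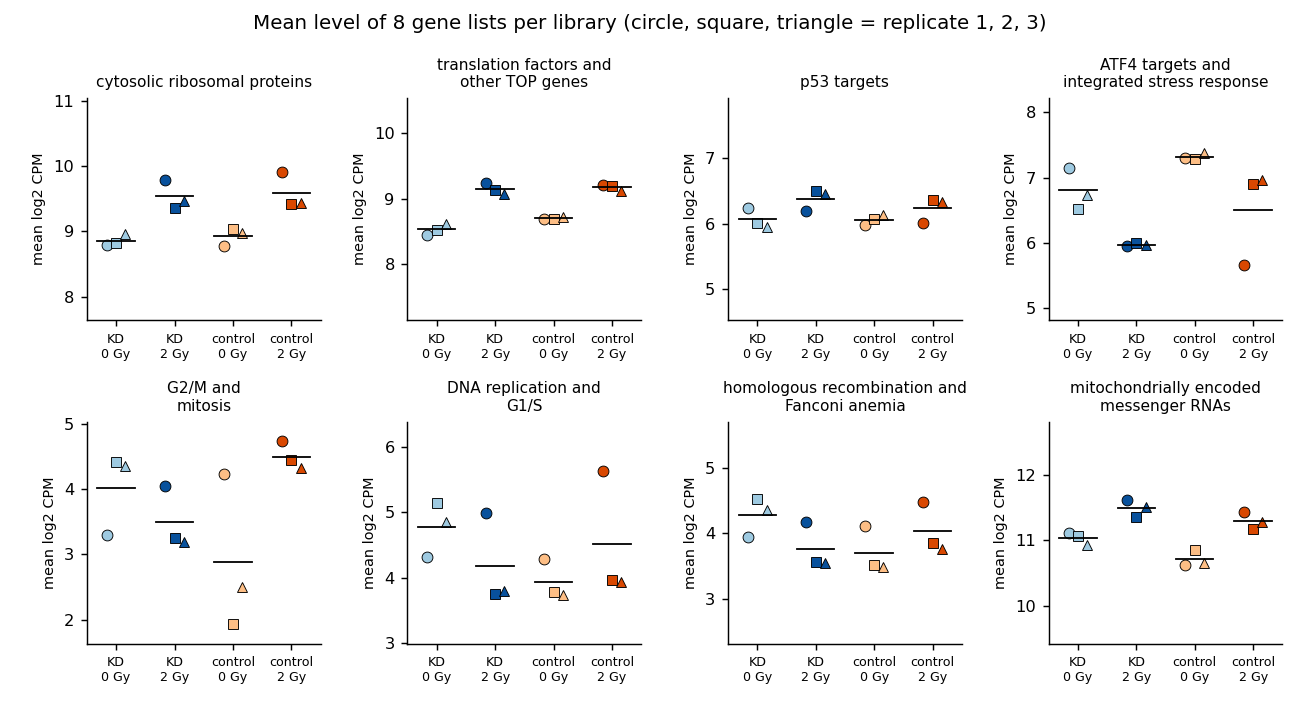
Mean log2 CPM over the tested members of 8 gene lists (y axis, same span in each panel) in the 12 libraries, by group (KD, knockdown); points are libraries, shapes their numbers, and bars group means. The knockdown groups are separate for ribosomal proteins, TOP genes, ATF4 targets and mitochondrial messages, and overlap for p53 targets and the proliferation and repair lists.

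DNA repair and checkpoint genes showed 2 single changes. MDC1, the mediator that binds phosphorylated H2AX at breaks (chromosome 6, 30699807 to 30717889), was at 62.0, 89.4 and 89.6 CPM without and 50.3, 51.3 and 51.9 CPM with irradiation (-0.65, SE 0.14, adjusted p = 0.0324). It was lower in each irradiated library than in any other and was the only call among 24 checkpoint genes (4.17%, against 1.4% of all genes). MUS81, a structure-specific endonuclease, fell by 0.51 on the log2 scale (adjusted p = 0.0368) and was the only call among 39 genes of homologous recombination and Fanconi anemia, 32 of which were negative (median -0.35), so 2.56% were lower against 1.4% of all genes. BRCA1 stood at -1.09 without passing (adjusted p = 0.341). FANCD2 stood at -0.86 (adjusted p = 0.116). The mean level of this list followed the proliferation lists, with 3.95, 4.53 and 4.36 without and 4.17, 3.56 and 3.54 with irradiation, and without all 4 libraries numbered 1 it had 22 lower, against 10.5% of all genes. Neither MDC1 nor MUS81 is firm: they passed in 5 and 3 of the 12 fits without 1 library. None of 13 end joining genes passed (median -0.09), with XRCC5 (Ku80) at 0.32 (adjusted p = 0.223). Among 17 genes of the BCL2 family none passed (median -0.05), nor among the 6 tested secreted senescence factors, IL6 and 17 others being too low to test.

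Of 13 messages of the mitochondrial genome 12 were positive and 2 were higher (15.4%, against 2.18%). MT-ND5, a complex I subunit, was at 1372, 1392 and 1620.4 CPM without and 1899, 2362 and 2187 CPM with irradiation (0.56, SE 0.13, adjusted p = 0.0392). Its call held in 3 of the 12 fits without 1 library, with adjusted p up to 0.17. MT-ATP8, a subunit of ATP synthase whose reading frame overlaps that of MT-ATP6, was at 253, 210.1 and 155 CPM and then at 1098, 719 and 831 CPM (2.10). It changed by 2.36 in controls, 22.2% of its exon positions lie in another gene, and MT-ATP6 stood at 0.11. The median of the 13 was 0.33. All mitochondrial genes together took 6.11%, 6.19% and 5.98% of counts without and 7.43%, 6.55% and 7.07% with irradiation (2-sided exact permutation p = 0.1, adjusted p = 0.15). The mitochondrial ribosomal RNAs, which polyadenylated libraries hold only in part, moved with them, from 0.883 to 1.05% of counts to 1.33 to 1.82%. Their part in the result was not tested. Histone genes of the HIST clusters, whose main transcripts lack a poly(A) tail, took 0.108 ± 0.00124% of counts and then 0.108 ± 0.00461% (exact permutation p = 1). Of 44 tested histone genes 3 were higher and 1 lower (6.82% and 2.27%, against 2.18% and 1.4% of all genes). These were HIST1H3H at 0.42, HIST1H2BC at 0.67, HIST3H2A at 0.75 and HIST2H4A at -0.93, the last with 97.5% of its words shared. In that order they were called in 1, 4, 9 and 5 of the 12 fits without 1 library.

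Of 12 tested genes of the methylosome and other arginine methyltransferases, 2 rose (16.7%, against 2.18% of all genes). CLNS1A (pICln), which brings Sm proteins to PRMT5, was at 118, 125 and 122 CPM without and 191, 168 and 154 CPM with irradiation (0.49, SE 0.11, adjusted p = 0.0347). PRMT3, an enzyme that methylates ribosomal protein S2, was at 40.4, 38.3 and 36.0 CPM and then at 55.4, 56.0 and 48.7 CPM (0.48, SE 0.10, adjusted p = 0.0333). Each call held in 5 of the 12 fits without 1 library. The obligate partner WDR77 stood at 0.38 (adjusted p = 0.288). Of 23 genes for Sm and other snRNP proteins and their assembly 22 were positive (median 0.28) and 2 were higher (8.70%, against 2.18% of all genes), SNRPB2 (0.59, adjusted p = 0.0475) and SNRPN (1.41). SNRPB2 was called in 2 of the 12 fits without 1 library and SNRPN in all 12. For SNRPN 39.2% of exon positions lie in another gene, its values being 31.5, 32.2 and 30.2 and then 82.8, 84.0 and 82.9 CPM.

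Of 26 androgen-induced genes 18 were positive (median 0.31), with 1 call each way (3.85%, against 2.18% higher and 1.4% lower of all genes). The mean log2 CPM of the list was 7.32, 6.94 and 7.08 without and 7.81, 7.06 and 7.04 with irradiation, irradiated library 1 being the only irradiated one above all 3 others. Without that library the median was -0.06, and without all 4 libraries numbered 1 it was 0.02. KLK3 (PSA), the prostate-specific antigen, was at 1782, 2359 and 2567 CPM without and 2954, 2785 and 2772 CPM with irradiation (0.34, adjusted p = 0.261). KLK3 was higher in every irradiated library, without passing. KLK4 was lower (-0.80, adjusted p = 0.0468) and ZBTB10 higher (0.81, adjusted p = 0.0495), each at the edge of the threshold. Of 25 tested immediate early genes 14 were positive (median 0.01), and the AP-1 factors JUNB and JUN were higher (8.00%, against 2.18% of all genes). Of the 8 tested AP-1 and EGR factors 4 were positive and 4 negative, with FOSB at -0.81 (adjusted p = 0.105). JUNB was at 8.33, 9.69 and 10.5 CPM and then at 23.7, 19.3 and 15.9 CPM (1.04, adjusted p = 0.0402) and JUN at 32.9, 28.7 and 27.2 CPM and then at 41.2, 49.2 and 42.5 CPM (0.58, adjusted p = 0.0415). Each was called in 2 of the 12 fits without 1 library. Cholesterol genes had 22 of 25 positive (median 0.18) and no call. Interferon response genes had 24 of 34 negative (median -0.16) and no call, with OAS3 at -1.59 (adjusted p = 0.0612). Of the markers of other cell types, ACTA2 was higher (1.33, adjusted p = 0.0347; 5.07, 3.24 and 2.91 and then 9.41, 10.0 and 8.67 CPM). ACTA2 has 26.0% of its words and 30.1% of its exon positions in another gene. Its call held in 5 of the 12 fits without 1 library, with adjusted p up to 0.153. The 12 fibroblast markers together, 6 of them under 10 counts in every knockdown library, summed to 172 to 202 CPM without and 157 to 216 CPM with irradiation. ENO2, the neuronal enolase, had the smallest p of the 3 neuroendocrine markers that could be tested, at 67.7, 93.1 and 74.7 CPM and then 23.2, 44.9 and 45.9 CPM (-1.05, adjusted p = 0.0633), while DLL3 stood at 0.67, SYP at -0.25, and CHGA did not exceed 1 count in a library. The 15 neuroendocrine markers, 12 of them under 10 counts in every knockdown library and NEUROD1 and STMN2 at 0, summed, mostly through ENO2, to 77.5 to 105 CPM without and 30.2 to 51.1 CPM with irradiation.

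Among called genes with a symbol and at least 5 CPM on average, the 12 largest changes each way were taken. Outside the gene lists they include FAM129A, SLC1A4, HEG1, SECTM1 and CFAP69 among the decreases and GNAI1 and TWIST1 among the increases. FAM129A (Niban), a stress-responsive cytoplasmic protein (chromosome 1, 184790724 to 184974550), had the largest decrease among called genes with a symbol, at least 5 CPM on average and no overlap of libraries. It was at 34.9, 16.1 and 19.7 CPM without and 0.768, 2.39 and 2.16 CPM with irradiation (-3.73, SE 0.80, adjusted p = 0.0332; called in 4 of the 12 fits without 1 library). SLC1A4, a transporter of alanine, serine and other neutral amino acids, was at 24.4, 15.2 and 15.8 CPM and then at 4.95, 2.57 and 2.92 CPM (-2.40, adjusted p = 0.017). HEG1, a transmembrane receptor, changed by -1.69, SECTM1 by -1.48 and the ciliary gene CFAP69 by -1.37. They were called in 4, 9 and 1 of those 12 fits. The following were picked after their values were seen. GTPBP2, a GTP-binding protein of ribosome rescue, changed by -1.35, the copper importer SLC31A1 by -0.90, the Polycomb partner PHF1 by -1.19 and the mitochondrial biogenesis factor NRF1 by -0.95. They were called in 2, 9, 11 and 3 of the 12 fits.

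Of the genes that rose, the inhibitory G protein subunit GNAI1 (4.47, 6.73 and 17.8 and then 86.1, 39.6 and 30.7 CPM; 2.42, adjusted p = 0.0418) and TWIST1, a transcription factor of epithelial-mesenchymal transition (5.29, 3.97 and 6.82 and then 39.4, 16.5 and 13.1 CPM; 2.10, adjusted p = 0.0392) were taken by the rule. Irradiated library 1 was the highest for both, and each passed in 3 of the 12 fits without 1 library. GNAI1 stood at 1.52 (adjusted p = 0.109) without all 4 libraries numbered 1. Picked after values were seen, DSC2, a desmosomal cadherin, was at 214, 278 and 248 CPM and then at 598, 682 and 641 CPM (1.38, adjusted p = 0.0165). The sodium bicarbonate cotransporter SLC4A4 rose by 1.40, the ETS factor ETV1 by 1.37, the Notch ligand JAG1 by 1.00, the syntaxin STX19 by 1.46 and the G protein regulator RGS10 by 1.20. STX19 and RGS10 passed whichever library was left out, as did DGKB, a diacylglycerol kinase (1.27). DSC2 and SLC4A4 were called in 8 of the 12 fits each, JAG1 and ETV1 in 7 each, and ETV1 stood at 1.28 (adjusted p = 0.0876) without all 4 libraries numbered 1. The remaining large increases taken by that rule (MTND2P28, MRPL12, UQCRHL, TOMM5 and GABARAP) lie between 2.20 and 3.36 on the log2 scale. Except for UQCRHL and TOMM5 they share at least 43.5% of their words with other genes, and they changed by 2.03 to 3.36 in controls.

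In cells without doxycycline 389 genes were called (2.26%), 238 higher and 151 lower. Scaled by library size only, which shifts the median of all genes there to -0.16, the split turned to 170 higher and 444 lower. Of the 374 genes higher in knockdown cells 167 (44.7%) were also higher in controls, which is 70.2% of the control list. Of the 241 lower ones 80 (33.2%) were also lower in controls, 52.98% of that list, and no gene was called in opposite directions. Called or not, 373 of the 374 were positive in controls and 240 of the 241 negative. No library serves both comparisons, but both use the spread that the model estimates over all 12. Both also set the 2 Gy table against the 0 Gy table. Same-numbered knockdown and control libraries deviated together within a dose (correlations of 0.233 to 0.296 at 0 Gy and 0.607 to 0.775 at 2 Gy). The overlap is therefore not that of independent comparisons. Ribosomal protein genes had a median of 0.62 in controls with 23 of 81 tested higher. For p53 targets it was 0.17 with 4 of 42 higher, and for ATF4 targets -0.54 with 2 of 29 lower. Over all 17191 tested genes 238 were higher and 151 lower in controls. TRIB3 was at -1.65 and DDIT3 at -1.71 in controls, SESN1 at 0.87 and BTG2 at 1.01, all called. MDM2 (0.34, adjusted p = 0.299) and CDKN1A (0.08, adjusted p = 0.839) did not pass there. Control MDM2 was at 314, 320 and 351 CPM without and 307, 470 and 469 CPM with irradiation, irradiated library 1 being the low one. The difference of effects, knockdown minus control, was 0.41 for MDM2 and 0.45 for CDKN1A and was called for neither.

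**Figure D5:**
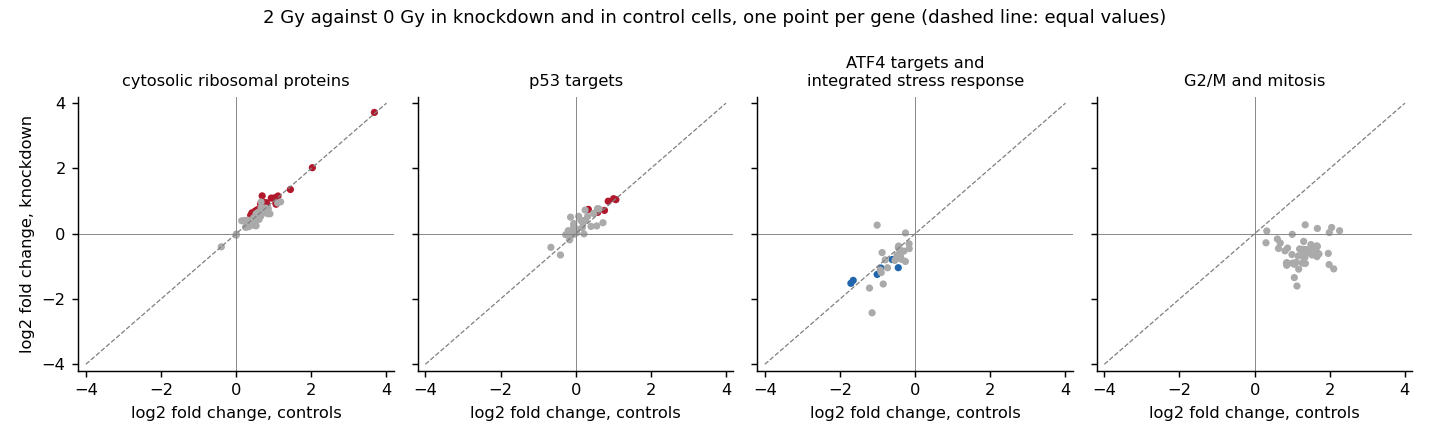
Log2 fold change of 2 Gy against 0 Gy in control cells (x axis) and in knockdown cells (y axis) for the tested members of 4 gene lists, 1 point per gene; red and blue points were called in knockdown cells, and the dashed line marks equal values. Ribosomal protein genes lie along the line, and the G2/M genes lie to the right of zero in controls and mostly below zero in knockdown cells.

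The difference between the irradiation effects of knockdown and control cells was called for 0 of 17191 genes (0%) in edgeR, with 350 at an unadjusted p under 0.05, and for 1 in DESeq2. With the replicate number as a block within each dose it was called for 0 (0%), with 2093 at an unadjusted p under 0.05 and a smallest adjusted p of 0.173. The widest gap was in proliferation genes. All 47 G2/M genes were positive in controls (median 1.28) and all 47 had a negative difference (median -1.91), yet none passed, the smallest adjusted p being 1.00, or 0.173 with that block. The G2/M level of the control libraries was 4.23, 1.94 and 2.51 log2 CPM without and 4.73, 4.44 and 4.32 with irradiation, and non-irradiated control libraries 2 and 3 were the lowest of the 12. Without all 4 libraries numbered 1 the difference was called for 307 genes (1.79%), 34 higher and 273 lower, among them 45 of 47 G2/M and 38 of 54 replication genes. For ribosomal protein genes the median difference was 0.03, for p53 targets 0.14 and for ATF4 targets -0.22, with no call.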

How the data were processed

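Polyadenylated RNA of 12 libraries was measured, 3 per group. The authors deposited whole-number counts for each gene, one table for 0 Gy and one for 2 Gy, with exon coordinates and gene length, per the file headers. Alignment with STAR 2.5, counting with featureCounts of Subread 1.5.3, edgeR 3.20.8 and the build GRCh38 are listed in the submitters' processing notes. No source used here gives the strand setting, the annotation release or how multi-mapping reads were counted, so values of genes with a near-identical, overlapping or antisense partner are uncertain. Genes were joined by identifier (63299 listed, 34300 with a count). No row without a gene was found.

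Counts were fitted with edgeR 4.0.16 in R 4.3.3: filterByExpr (minimum count 10, minimum total 15) kept 17191 genes, scaling was by TMM, and a single quasi-likelihood fit (robust) took the means of the 4 groups from all 12 libraries, leaving 8 residual degrees of freedom. Calls needed an adjusted p (Benjamini-Hochberg, all tested genes) under 0.05, and adjusted p-values are from this test. Standard errors are the log2 fold change divided by the square root of the F statistic. Sharing is the percent of a gene's 50-base words in GENCODE 29 transcripts, and of its exon positions, also found in another gene. Named genes are PRMT5, the 12 largest changes each way among called genes with a symbol, at least 5 CPM on average and no overlap of libraries, the up to 4 tested genes of lowest p in each list, and 8 set genes. Some list members are not reported here. Further list members were named for their role with values known. The members and lists were chosen with earlier results of these data known. Alternatives were other scalings, filters and tools (limma-voom in limma 3.58.1, DESeq2 1.42.0), fewer libraries and a replicate block. Same-numbered knockdown and control libraries deviated together within a dose (correlations of 0.233 to 0.296 at 0 Gy and 0.607 to 0.775 at 2 Gy). Different-numbered ones correlated at -0.178 to -0.0678 at 0 Gy and at -0.677 to 0.476 at 2 Gy. At 2 Gy, knockdown 2 with control 3 stood at 0.476 and knockdown 3 with control 2 at 0.396. Pairing by number was seen in the data and is not stated in the labels. The difference of effects was therefore also fitted with a block within each dose.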

Additional observations from a re-analysis of the deposited data

How the results depend on the processing

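With 3 libraries a group, the number of genes called for 2 Gy in knockdown cells (615) moved with the fit and the libraries. It was 344 with only the 6 knockdown libraries, 1438 in DESeq2, 191 without both knockdown libraries numbered 1 and 3628 without all 4 libraries numbered 1, the last 2 chosen after seeing the data, and 76 to 1489 leaving out each of the 12 libraries. In controls (389) it was 614 scaled by library size only, 592 with no filter on low counts, 1377 in DESeq2, 64 with only the 6 control libraries, 2593 without all 4 libraries numbered 1 and 24 to 648 leaving out 1 library. The difference of the effects (0) was 1 in DESeq2, 307 without all 4 libraries numbered 1 and 0 leaving out any 1 library or with a replicate block, across the tables or within each dose (the latter added after seeing the data). With a replicate block across the tables the counts were 1157 in knockdown cells and 965 in controls. The numbers pair no samples across the doses: same-numbered libraries of the 2 knockdown groups correlated at -0.04 to 0.02 in their deviations from the group means. Of the 615 calls, 59 held in all 12 fits without 1 library, 15 of them with under 5% sharing, and none changed sign in any alternative.

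The difference in share of counts, 2 Gy minus 0 Gy, ran from 1.93 to 2.71 percentage points for ribosomal protein and from 0.715 to 1.16 for mitochondrial genes leaving out 1 library. For histone genes it ran from -0.00182 to 0.00268. Signs reversed only in genes with no call. Without both knockdown libraries numbered 1, and without all 4 so numbered, the log2 fold changes were -0.23 and -0.23 for COL17A1, -0.0491 and -0.0485 for CCNB1, -0.31 and -0.31 for KRT14, -0.42 and -0.42 for CD4, and 0.50 and 0.50 for LUM. Leaving out 1 library in turn they ran from -0.35 to 1.80 for IGFBP3, -0.43 to 0.90 for KRT14, -0.33 to 0.44 for CD4 and -0.53 to 0.18 for LUM. The 147 genes examined were counted once for each gene and alternative setting. Of these results 2457 kept the side of the threshold, 509 lost a call, 102 gained one and 15 reversed sign. Depth limits low genes: a count of 3 is 0.101 to 0.174 CPM.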
